A study of Mus musculus with 4 samples.

Results

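The genes described here make up the general RNA decay machinery of the cell: the RNA exosome with its helper proteins, the decapping enzyme with the 5′-to-3′ exonucleases, the factors of nonsense-mediated decay (NMD), and poly(A)-removing enzymes outside the CCR4-NOT complex. They were picked out by gene name, as 34 of the 53465 genes in the deposited table. The rule uses no measured value, but the list was drawn up with earlier results of these data known. All 34 names matched a single row, and all 34 were expressed well enough to be tested, with at least 265 counts in every library. By role they fell into 14 genes of the exosome and its partners, 8 of decapping and 5′ decay, 9 of NMD and 3 deadenylases.

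RNA was sequenced from whole testes of male mice at postnatal day 18, on a mixed C57BL/6 and ICR background. Wild-type testes gave 2 libraries, and testes with a conditional knockout of Sympk (Sympk cKO) gave 2 more. The Cre recombinase was Stra8-Cre, whose promoter is active in male germ cells around the onset of differentiation and meiosis. The deletion is thus aimed at germ cells and not at Sertoli, Leydig and other somatic cells. The state of Sympk in each cell type was not measured here. The labels call the first group wild type and the protocol calls it control, with no further genotype, and they do not say how many animals stand behind a library. P-values therefore measure the spread between these libraries, which may be technical. The question of the series was how transcript levels depend on Sympk in the testis. The gene encodes symplekin, a scaffold protein of the machinery that cleaves and polyadenylates mRNA 3′ ends.

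An mRNA is usually destroyed after its poly(A) tail has been shortened. It can then lose its cap and be eaten by the exonuclease XRN1 from the 5′ end, or be eaten by the exosome, a ring of inactive subunits with an attached nuclease, from the 3′ end. NMD is a surveillance pathway that marks mRNAs with a premature stop codon through UPF1 and its partners and hands them to these enzymes. In spermatogenesis UPF2 and UPF3A are known to matter for germ cells, and the X-linked genes of the machinery are of interest because the X chromosome is silenced in spermatocytes.

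Wild-type libraries held 41584389 and 37764044 counts, and cKO libraries 40994172 and 32730868. Of 14 spermatocyte markers all 14 fell in the cKO testes, and their summed level went from 6507 and 6818 CPM (counts scaled to library size with TMM, edgeR's library factor) in wild type to 216 and 339 CPM in cKO. Of 20 Sertoli cell markers 19 rose, with a summed level of 3371 and 3574 CPM in wild type against 8134 and 7294 CPM in cKO. Spermatogonial markers rose in 7 of 10 cases, macrophage markers in 6 of 6, endothelial markers in 6 of 6, peritubular markers in 4 of 6 and Leydig cell markers in 4 of 7. Their summed CPM in wild type and cKO ran over 267 to 269 and 512 to 526 for spermatogonia, 150.0 to 150.6 and 322 to 361 for macrophages, 73.2 to 83.0 and 174 to 176 for endothelium, 573 to 608 and 984 to 1145 for peritubular cells, and 274 to 404 and 701 to 749 for Leydig cells. Over all genes tested, 29.2% rose and 34.3% fell. These rises hold with TMM. With libraries scaled to the 20 Sertoli genes, 0 markers rose in each of the spermatogonial, macrophage, endothelial, peritubular and Leydig lists. In the same order, 3, 0, 2, 3 and 2 of them then fell. Of all 21822 genes tested, 309 were then higher and 14453 lower. In such bulk tissue, fewer cells of a type and less RNA per cell cannot be told apart, and the part that this shift in markers played in the values below was not tested. Sympk itself stood at 225.2 and 192.0 CPM in wild type and at 171.5 and 173.2 CPM in cKO, counted over the whole gene. The log2 fold change, -0.28, missed the cutoff of 0.05 (adjusted p = 0.132 in edgeR's quasi-likelihood test) but met it without wild-type replicate 2 (-0.41, adjusted p = 0.0313).

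Among the 34 decay genes, 16 fell in the cKO testes, 5 rose and 13 did not pass the test (adjusted p under 0.05 over all genes tested, edgeR's quasi-likelihood test, cKO against wild type). The share that fell was 47.1%, against 34.3% of the 21822 genes tested, and the share that rose was 14.7%, against 29.2%. The genes tested were not matched to the members in expression. Of the 16 falls, 12 were at least 2-fold, a share near the 76.9% among all genes that fell, and 1 of the 5 rises was at least 2-fold. The median log2 fold change of the members was -0.41, against -0.02 for all genes tested. The exosome group held 8 falls and 1 rise, the NMD group 5 falls and 1 rise, the decapping group 2 falls and 2 rises, and the deadenylases 1 of each. Group medians were -0.77 for the exosome, -0.52 for NMD, -0.32 for the deadenylases and -0.06 for decapping. Among the falls, 13 held whichever library was left out and under each other test, filter and scaling, and among the rises only that of Upf3b did so apart from the scaling to Sertoli genes. On that scale the mean log2 level of the listed Sertoli genes is set equal in all libraries. The median of all genes then moved by -1.33. Of all genes, 309 were higher and 14453 lower in cKO, against 6368 higher and 7477 lower with TMM. Of the members, 33 were then lower and 0 were higher. The 5 rises named here were therefore called relative to the bulk of the transcriptome and not relative to the Sertoli genes. Apart from that of Upf3b, each was also lost in other settings.

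**Figure D1:**
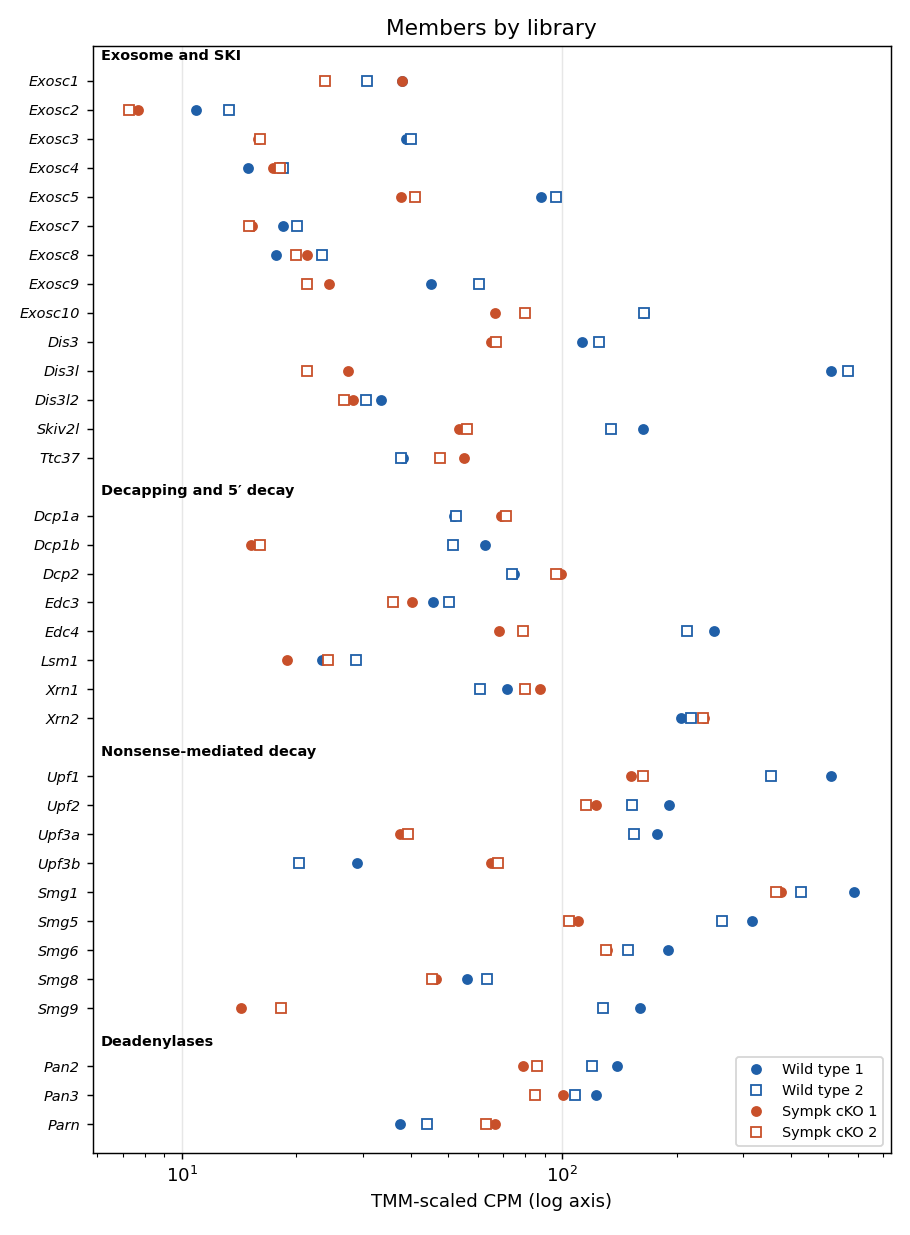
TMM-scaled CPM (log axis) of each of the 34 members in the 2 wild-type (blue) and 2 Sympk cKO (red) libraries, with filled circles for replicate 1 and open squares for replicate 2. The widest gaps between the groups are those of Dis3l (509.8 and 566.3 CPM against 27.4 and 21.4 CPM) and Smg9, while Upf3b lies to the right in the cKO libraries.

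The members with falls of over 4-fold were Dis3l, Smg9 and Upf3a, and the member with a rise of over 2-fold was Upf3b. Their promoters are shown because these 4 genes carry the largest differences in opposite directions. Each is the window from 250 bases before to 50 after the RefSeq start (build GRCm38.p6, the windows lying at chr9:64340724-64341023 on the minus strand for the first of 2 listed starts of Dis3l, chr7:24399378-24399677 on the plus strand for Smg9, chr8:13785365-13785664 on the plus strand for Upf3a and chrX:37110273-37110572 on the minus strand for Upf3b), read 5′ to 3′ on the strand of the gene. Capitals mark matches, on either strand, to the core AACNG of the MYB family, which includes the spermatocyte regulator A-MYB, and to the NRF1 element, a palindrome made of GCGCA followed by its reverse complement. None of the motifs searched contains another.
Dis3l: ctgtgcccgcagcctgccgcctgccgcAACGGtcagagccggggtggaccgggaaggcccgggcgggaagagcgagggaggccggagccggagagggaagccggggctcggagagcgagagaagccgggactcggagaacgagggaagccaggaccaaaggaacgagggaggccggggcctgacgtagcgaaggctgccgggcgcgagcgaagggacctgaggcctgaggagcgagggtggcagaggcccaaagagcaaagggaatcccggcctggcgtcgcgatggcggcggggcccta
Smg9: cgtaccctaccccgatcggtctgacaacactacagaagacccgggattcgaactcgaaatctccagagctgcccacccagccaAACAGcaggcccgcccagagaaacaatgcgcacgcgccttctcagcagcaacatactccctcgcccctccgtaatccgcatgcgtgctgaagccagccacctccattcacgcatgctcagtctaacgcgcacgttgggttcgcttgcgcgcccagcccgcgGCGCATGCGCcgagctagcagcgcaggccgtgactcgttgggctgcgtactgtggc
Upf3a: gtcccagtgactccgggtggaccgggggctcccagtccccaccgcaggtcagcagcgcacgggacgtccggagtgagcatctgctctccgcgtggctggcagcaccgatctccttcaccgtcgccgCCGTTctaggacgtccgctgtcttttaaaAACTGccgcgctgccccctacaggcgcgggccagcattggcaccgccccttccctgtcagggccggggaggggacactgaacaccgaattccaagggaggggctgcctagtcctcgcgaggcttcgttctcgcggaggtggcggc
Upf3b: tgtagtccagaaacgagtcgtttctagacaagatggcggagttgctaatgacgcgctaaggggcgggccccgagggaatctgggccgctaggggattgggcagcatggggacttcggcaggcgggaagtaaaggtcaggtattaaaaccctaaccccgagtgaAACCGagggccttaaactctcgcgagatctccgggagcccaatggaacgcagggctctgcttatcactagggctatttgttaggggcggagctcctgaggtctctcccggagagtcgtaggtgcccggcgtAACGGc

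Of the 34 members, 29 had a promoter in the RefSeq table. The MYB core is a short motif and was present in 23 of the 29 member promoters (79.3%) and in 80.3% of all 32851 promoter windows of the same length. It occurred once in the windows of Dis3l and Smg9, and the windows of Upf3a and Upf3b held 2 matches each. The NRF1 element was found in 4 of the 29 (13.8%), in Smg9, Exosc5, Upf1 and Ttc37, against 0.971% of all windows. Of these genes Smg9, Exosc5 and Upf1 fell and Ttc37 rose. The set of all windows was not matched to the member windows in expression or base composition. The difference in share is therefore not read as a trait of decay genes. The cyclic AMP response element TGACGTCA, the site of the testis factor CREM, was in 0 of the 29 member windows and in 1.79% of all windows. No binding was measured here, and a match of letters only describes the window.

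The exosome core is a ring of subunits related to RNase PH, capped by RNA-binding subunits. Its RNAs did not move as a block. Of the cap genes, Exosc3 had 38.8 and 40.0 CPM in wild type and 15.9 and 16.03 CPM in cKO, with no overlap (log2 fold change -1.30, SE 0.144, adjusted p = 5.81e-04). Exosc2, another cap gene and the least abundant member by CPM, had 10.9 and 13.3 CPM in wild type and 7.66 and 7.26 CPM in cKO (-0.70, adjusted p = 0.0209). It was no longer called once wild-type replicate 2 (adjusted p = 0.0562), cKO replicate 1 (0.0703) or cKO replicate 2 (0.0975) was dropped, nor with library totals as the scale (-0.48, adjusted p = 0.0849). Exosc2 exons overlap those of Gm13427 on the other strand over 12.4% of their bases. The remaining cap gene, Exosc1, had overlapping groups, at 37.9 and 30.6 CPM against 37.8 and 23.9 CPM, and was not called (adjusted p = 0.62).

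In the ring, Exosc5 and Exosc9 fell while Exosc4, Exosc7 and Exosc8 were not called. Exosc5 (chromosome 7, 25659164 to 25671368, plus strand, GRCm38) had 88.0 and 96.7 CPM in wild type and 37.8 and 41.2 CPM in cKO (log2 fold change -1.23, SE 0.138, adjusted p = 6.16e-04). Exosc9, whose exons overlap those of Ccna2 on the other strand over 10.8% of their bases, had 45.1 and 60.4 CPM against 24.5 and 21.3 CPM (-1.204, SE 0.191, adjusted p = 0.00231). Exosc7 had 18.4 and 20.1 CPM against 15.3 and 15.0 CPM, with no overlap, and a log2 fold change of -0.35 (SE 0.158, adjusted p = 0.0969). The log2 fold change was 0.01 (SE 0.189) for Exosc8 and 0.09 (SE 0.177) for Exosc4. Exosc4 exons overlap those of Oplah on the other strand over 19.8% of their bases. For Exosc8 and Exosc4 the groups of libraries overlapped. A p-value above the threshold does not show that these genes were unchanged. The ring gene outside the chosen members, Exosc6, looked unlike all of these and was named after its values were seen: it had 288 counts in wild-type replicate 1, 1 count in wild-type replicate 2, and 447 and 325 counts in the cKO libraries, and was not called (adjusted p = 0.392).

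The largest difference of the whole set was that of 1 catalytic subunit gene of the exosome, Dis3l. Dis3l encodes the nuclease of the cytoplasmic exosome and lies on the minus strand of chromosome 9 from 64306756 to 64341288. Wild-type libraries had 509.8 and 566.3 CPM of it, and cKO libraries 27.4 and 21.4 CPM. Both cKO libraries lay far below both wild-type libraries, with a log2 fold change of -4.46 (SE 0.195, adjusted p = 1.83e-05), which is 22.0-fold lower. Of all genes tested, 1788 had a log2 fold change at least as low, so the size of this fall is matched by many transcripts in the cKO testis. Per unit of gene length (FPKM, fragments per kilobase of gene length, scaled to library size), Dis3l was in place 2 among the 34 members in wild type and in place 27 in cKO. The length behind its deposited FPKM was 7468 bases, against 5458 annotated exonic bases. Places by annotated length were not computed.

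The nuclear nucleases of the exosome fell less. Exosc10, the nuclear nuclease best known from ribosomal RNA processing, had 164.1 and 164.0 CPM in wild type and 66.8 and 80.0 CPM in cKO (log2 fold change -1.16, SE 0.145, adjusted p = 9.1e-04). Dis3, the paralog of Dis3l found mainly in the nucleus, had 112.8 and 125.3 CPM against 65.0 and 67.2 CPM (-0.85, SE 0.132, adjusted p = 0.00211). Neither gene overlapped between groups. Dis3l2, a relative that degrades uridylated RNA without the exosome ring, had 33.3 and 30.5 CPM against 28.3 and 26.7 CPM. Its log2 fold change of -0.22 (SE 0.146) was not called (adjusted p = 0.237).

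The SKI complex feeds mRNA into the cytoplasmic exosome. With TMM scaling its helicase gene fell, its scaffold gene had a small rise that was not called with any library left out, and Wdr61, its other subunit gene, which is no member and was named after its values were seen, was not called (log2 fold change -0.28, adjusted p = 0.242). Skiv2l, its helicase, had 163.7 and 134.9 CPM in wild type and 53.6 and 56.2 CPM in cKO (log2 fold change -1.44, SE 0.150, adjusted p = 4.66e-04). Ttc37, its scaffold, had 38.3 and 37.7 CPM in wild type and 55.4 and 47.8 CPM in cKO (0.44, SE 0.145, adjusted p = 0.0363). The Ttc37 call was lost whichever library was left out, with adjusted p = 0.0609 without wild-type replicate 1, 0.0748 without wild-type replicate 2, 0.249 without cKO replicate 1 and 0.0744 without cKO replicate 2. It was also lost with no filter on low counts (adjusted p = 0.0597) and with a replicate block (adjusted p = 0.0758), and its direction turned on the Sertoli scale (-0.90).

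**Figure D2:**
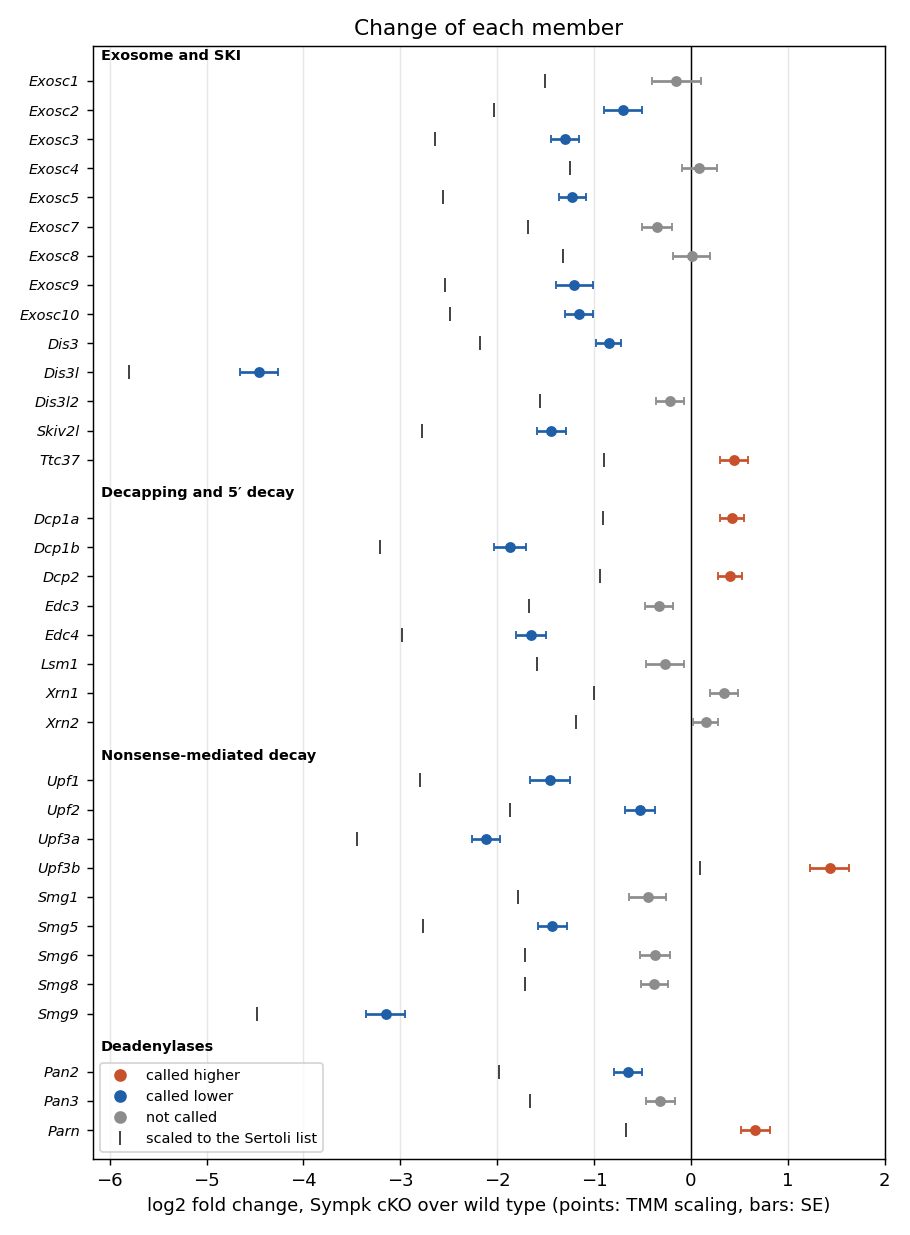
Log2 fold change of cKO over wild type for each member with its SE (points and bars, TMM scaling), coloured by the call, and the same value when libraries are scaled to the Sertoli gene list (ticks). Dis3l at -4.46, Smg9 at -3.15 and Upf3a at -2.11 lie farthest to the left, and Upf3b at 1.43 is the one member whose Sertoli-scaled value stays above 0, at 0.09.

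In decapping, some activators fell, while the catalytic subunit had a small rise with TMM scaling that turned to a fall on the Sertoli scale. Dcp2 encodes the enzyme that removes the cap. It had 74.8 and 73.9 CPM in wild type and 99.6 and 96.6 CPM in cKO, with no overlap (log2 fold change 0.40, SE 0.124, adjusted p = 0.0302). Dcp1a, which encodes its coactivator, had 51.9 and 52.5 CPM against 69.0 and 71.2 CPM (0.43, SE 0.127, adjusted p = 0.0263). Both rises were small, and both calls were lost without cKO replicate 1 (adjusted p = 0.176 for Dcp2 and 0.124 for Dcp1a), without cKO replicate 2 (0.129 and 0.149) and with a replicate block (0.0743 and 0.0675). Dcp2 also missed the cutoff with wild-type replicate 2 dropped (adjusted p = 0.0506) and with no filter on low counts (adjusted p = 0.0535), and on the Sertoli scale the values were -0.94 for Dcp2 and -0.91 for Dcp1a.

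Dcp1b encodes the second form of the coactivator and lies on chromosome 6 from 119175253 to 119221616 on the plus strand. It had 62.8 and 51.7 CPM in wild type and 15.2 and 16.1 CPM in cKO. Every cKO value was below every wild-type value, with a log2 fold change of -1.87 (SE 0.164, adjusted p = 2.41e-04). Edc4, a scaffold that joins the coactivator to the enzyme, had 250.5 and 212.7 CPM against 68.3 and 78.9 CPM and fell by 1.65 on the log2 scale (SE 0.156, adjusted p = 3.18e-04). Its exons share 8.33% of their bases with those of Nrn1l on the same strand. Edc3, another enhancer of decapping, was at 45.8 and 50.3 CPM against 40.4 and 35.9 CPM and was not called (-0.33, adjusted p = 0.0894). Edc3 exons overlap those of Clk3 on the other strand over 22.1% of their bases, and no strand setting is given for the counting, so reads of the overlap may belong to either gene. Lsm1, the subunit that defines the cytoplasmic ring of the decapping pathway, was at 23.4 and 28.7 CPM against 18.9 and 24.2 CPM, with overlapping groups (-0.27, adjusted p = 0.263).

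The exonucleases that work from the 5′ end did not pass the test. Xrn1, which degrades decapped mRNA in the cytoplasm, had 71.8 and 60.9 CPM in wild type and 87.7 and 80.0 CPM in cKO (log2 fold change 0.34, SE 0.146, adjusted p = 0.0855). It was called without wild-type replicate 1 (0.46, adjusted p = 0.0373) and with library totals as the scale (0.56, adjusted p = 0.0125). Xrn2 is the nuclear enzyme that degrades the RNA left downstream of a cleaved poly(A) site. It had 205.3 and 218.3 CPM against 236.3 and 234.6 CPM (0.15, SE 0.129, adjusted p = 0.333), and was called only with library totals as the scale (0.37, adjusted p = 0.0427). On the Sertoli scale both were lower in cKO, at -1.003 for Xrn1 and -1.18 for Xrn2.

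Among the core NMD factors, Upf1 and Upf2 fell. Upf1 encodes the helicase at the centre of the pathway and was the member with the highest deposited FPKM in wild type, at 77.6. Its wild-type levels, 509.4 and 354.1 CPM, differed by 43.9%, the widest such gap among the members, and its cKO levels were 151.6 and 163.6 CPM. The groups did not overlap, and the log2 fold change was -1.45 (SE 0.204, adjusted p = 0.00141). Upf2, the adaptor that activates UPF1, had 190.7 and 152.3 CPM against 122.8 and 115.9 CPM (-0.52, SE 0.156, adjusted p = 0.026). It was not called with cKO replicate 1 dropped (adjusted p = 0.0908), with cKO replicate 2 dropped (0.142) or with library totals as the scale (-0.30, adjusted p = 0.112).

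The paralogs Upf3a and Upf3b, whose proteins link UPF2 to the exon junction complex, moved in opposite directions with TMM scaling, though on the Sertoli scale Upf3b was not called. Upf3a is autosomal (chromosome 8, 13785615 to 13799193, plus strand). It had 177.9 and 154.7 CPM in wild type and 37.5 and 39.4 CPM in cKO (log2 fold change -2.11, SE 0.143, adjusted p = 8.2e-05). Upf3b is X-linked, on the minus strand from 37091678 to 37110322. It had 28.9 and 20.3 CPM in wild type and 65.0 and 67.9 CPM in cKO (1.43, SE 0.1996, adjusted p = 0.00139). Both genes were free of overlap between groups, and both calls held whichever library was left out. On the Sertoli scale Upf3b was at 0.09 and no longer called (adjusted p = 0.733), while Upf3a was at -3.45.

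The SMG genes serve the phosphorylation cycle of UPF1 and the decay step after it. Smg9, a regulator of the kinase SMG1, lies on chromosome 7 from 24399619 to 24422778 on the plus strand and had 160.5 and 128.3 CPM in wild type and 14.3 and 18.3 CPM in cKO. The cKO libraries lay far below, with a log2 fold change of -3.15 (SE 0.1999, adjusted p = 6.41e-05), or 8.88-fold. Its partner Smg8 had 56.1 and 63.5 CPM against 46.5 and 45.6 CPM. The value of -0.38 (SE 0.139) missed the threshold (adjusted p = 0.0525) but passed it without wild-type replicate 1 (adjusted p = 0.0295), with DESeq2 (adjusted p = 0.0264) and with RLE size factors (adjusted p = 0.0373). Smg5, an adaptor that recruits decay enzymes to phosphorylated UPF1, had 315.0 and 262.6 CPM against 110.1 and 104.3 CPM and fell by 1.43 (SE 0.150, adjusted p = 4.79e-04).

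The kinase gene Smg1 and the endonuclease gene Smg6 were not called. Smg1 had 586.6 and 425.7 CPM in wild type and 376.6 and 365.4 CPM in cKO (log2 fold change -0.45, SE 0.188, adjusted p = 0.0786). It was called without wild-type replicate 2 (-0.68, adjusted p = 0.00686) and with DESeq2 (adjusted p = 0.0432), and without wild-type replicate 1 its value was -0.20. Smg6 had 189.4 and 149.4 CPM against 131.5 and 130.3 CPM (-0.37, SE 0.157, adjusted p = 0.0798). It too was called without wild-type replicate 2 (-0.55, adjusted p = 0.0131), while its value was -0.20 without wild-type replicate 1. For both genes the cKO libraries were close together and the wild-type libraries stood apart.

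The deadenylases differed among themselves. Pan2, the catalytic subunit of a complex that trims long poly(A) tails, had 139.2 and 119.6 CPM in wild type and 79.1 and 85.9 CPM in cKO (log2 fold change -0.65, SE 0.142, adjusted p = 0.00812). Pan3, the adaptor that brings PAN2 to poly(A)-binding protein, had 123.2 and 108.0 CPM against 100.6 and 84.8 CPM and was not called (-0.32, adjusted p = 0.111). Parn, a poly(A)-specific nuclease that also trims telomerase RNA, had 37.6 and 44.2 CPM against 66.6 and 63.2 CPM (0.67, SE 0.147, adjusted p = 0.00842). Without cKO replicate 1 the calls of Pan2 (adjusted p = 0.0667) and Parn (adjusted p = 0.0543) were lost, and on the Sertoli scale Parn was at -0.67.

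Ratios between genes within a library do not depend on how libraries are scaled, so paralogs and complex partners were also compared in that way, on FPKM. The ratio of Dis3l to Dis3 was 6.27 and 6.28 for wild type and 0.585 and 0.442 for cKO. The cytoplasmic nuclease RNA thus exceeded that of the nuclear paralog in wild type and was below it in cKO, a 12.3-fold difference in the ratio. The ratio of Upf3a to Upf3b was 4.003 and 4.96 in wild type and 0.375 and 0.378 in cKO, an 11.8-fold difference. The autosomal paralog was the more abundant in both wild-type libraries and the X-linked one in both cKO libraries.

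The ratio of Dcp1b to Dcp1a was 1.85 and 1.502 in wild type and 0.336 and 0.345 in cKO, a 4.89-fold difference with the same exchange of order. The ratio of Smg9 to its partner Smg8 was 2.39 and 1.69 in wild type and 0.256 and 0.335 in cKO, a 6.85-fold difference. Their order changed as well. The ratio of Skiv2l to Ttc37 was 7.07 and 5.91 in wild type and 1.60 and 1.94 in cKO, and Skiv2l stayed the more abundant of the pair. Edc4 over Edc3 went from 6.04 and 4.67 to 1.87 and 2.42, and Dis3 over Dis3l2 from 3.19 and 3.88 to 2.17 and 2.38.

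Partners with smaller differences were Pan2 over Pan3, at 2.16 and 2.12 in wild type and 1.503 and 1.94 in cKO, and Xrn2 over Xrn1, at 13.6 and 17.0 in wild type and 12.8 and 13.9 in cKO. The libraries of the groups overlapped for Xrn2 over Xrn1. They did not overlap for the other 9 of the 10 pairs of members, with Dis3l over Dis3l2 (20.03 and 24.3 against 1.27 and 1.05) the last of these. The share of such pairs among all genes was not computed. Of the 34 members, 30 did not overlap singly, and the share of all genes tested that did not overlap was not computed either. The 63.4% of genes that were called is a different measure. Neither the count of pairs nor that of single members is therefore read as a trait of these genes. With 2 libraries against 2, the two-sided exact permutation test cannot give a p below 0.333, which is the value of each non-overlapping pair (0.361 after Benjamini-Hochberg adjustment over 13 pairs), so the exchange of order is reported as it stands in the 4 libraries. The gene lengths behind the authors' FPKM were larger than the annotated exonic length for 32 of the 34 members, by a median factor of 1.35. With annotated lengths the mean ratios were 6.42 and 0.521 for Dis3l over Dis3, 4.67 and 0.395 for Upf3a over Upf3b, and 1.42 and 0.290 for Dcp1b over Dcp1a, so the order in each genotype was the same.

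**Figure D3:**
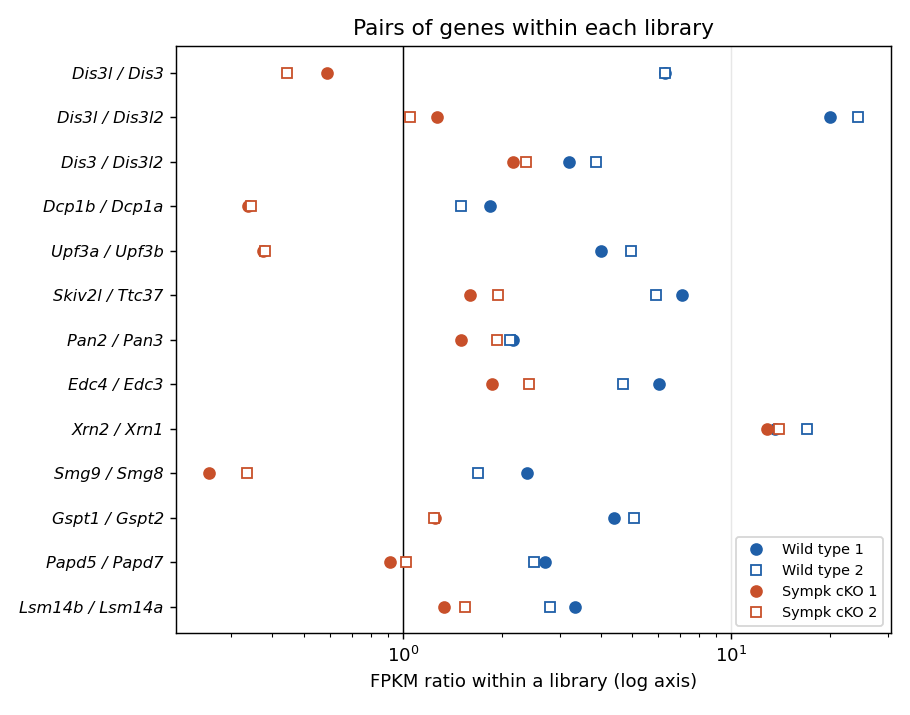
Ratio of FPKM between the genes of each pair within each of the 4 libraries (log axis), wild type in blue and Sympk cKO in red, with the line marking equal FPKM. For Dis3l over Dis3, Upf3a over Upf3b, Dcp1b over Dcp1a and Smg9 over Smg8 both wild-type libraries lie above 1 and both cKO libraries below it.

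Per unit of length, the members spanned from 2.07 FPKM (Exosc8) to 77.6 FPKM (Upf1) in the wild-type mean, with a median of 10.3 FPKM. In the cKO mean they spanned from 1.65 FPKM (Dcp1b) to 56.0 FPKM (Xrn2), with a median of 6.42 FPKM. The leading members in wild type were Upf1, Dis3l at 66.7 FPKM and Xrn2 at 43.2 FPKM. In cKO they were Xrn2, Upf1 at 33.2 FPKM and Parn at 24.1 FPKM, and Dis3l stood at 3.51 FPKM. For Parn the length behind the FPKM, 2902 bases, was shorter than its annotated exonic length of 5381 bases. Its place therefore depends on the length used. FPKM is scaled to the library total and not by TMM, so these levels describe each library, and no change is read from them. The order of the members rests on the lengths behind the deposited FPKM and was not computed with annotated exonic lengths.

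Genes of the same pathways outside the members were read against the same background, 34.3% lower and 29.2% higher over all genes tested with TMM. On the Sertoli scale the background for each list was 14453 genes lower and 309 higher of the 21822 tested. Of 16 other NMD factors, 12 fell (75%) and 1 rose (6.25%), and the median was -0.67 on the log2 scale, while on the Sertoli scale 15 were lower and 0 higher. Ncbp1, the large subunit of the nuclear cap-binding complex, had 420.6 and 418.8 CPM in wild type and 97.8 and 92.2 CPM in cKO (-2.14, SE 0.136, adjusted p = 6.29e-05). Ruvbl2, an ATPase that associates with SMG1, had 125.3 and 131.7 CPM against 38.9 and 33.5 CPM (-1.83, adjusted p = 1.54e-04). The riser was Gspt2, an X-linked release factor gene, at 31.7 and 29.7 CPM against 77.0 and 68.7 CPM (1.25, adjusted p = 6.43e-04), though it was at -0.09 on the Sertoli scale. The FPKM ratio of its autosomal paralog Gspt1 to Gspt2 was 4.38 and 5.04 in wild type and 1.25 and 1.25 in cKO.

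Of 15 other exosome factors, 5 fell (33.3%) and 2 rose (13.3%), with a median of -0.10. The share that fell was near that of all genes tested, and on the Sertoli scale 14 were lower and 0 higher. Skiv2l2, the MTR4 helicase of the nuclear exosome, had 267.5 and 275.5 CPM in wild type and 121.3 and 116.0 CPM in cKO (log2 fold change -1.19, adjusted p = 5.27e-04). Hbs1l, which helps to rescue stalled ribosomes, had 123.4 and 125.2 CPM against 59.1 and 57.4 CPM (-1.09, adjusted p = 6.6e-04). The rises were those of Zcchc7 (0.62, adjusted p = 0.0439) and the poly(A) polymerase gene Papd7 (0.53, adjusted p = 0.0176), which became -0.73 and -0.81 on the Sertoli scale. Neither was called with cKO replicate 1 dropped (adjusted p = 0.137 and 0.115) or cKO replicate 2 (0.0776 and 0.0644). Zcchc7 also missed the cutoff with wild-type replicate 2 dropped (0.33, adjusted p = 0.0823) and with RLE size factors (adjusted p = 0.0572), and its value was 0.94 without wild-type replicate 1.

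Of 20 other decapping and mRNA-binding decay factors, 7 fell (35%) and 5 rose (25%), with a median of -0.12. Both shares were near those of all genes tested, and on the Sertoli scale 17 were lower and 0 higher. Lsm2 and Lsm4, ring subunits shared between the decapping and the spliceosomal complexes, had 64.8 and 77.4 CPM against 15.1 and 16.6 CPM (log2 fold change -2.17, adjusted p = 1.27e-04) and 102.3 and 120.4 CPM against 33.97 and 37.4 CPM (-1.64, adjusted p = 2.86e-04). The largest rises were in genes for proteins that bind AU-rich elements and recruit deadenylases. Zfp36l2 had 56.6 and 52.2 CPM in wild type and 144.5 and 122.7 CPM in cKO (1.30, adjusted p = 6.26e-04), and Zfp36l1 had 47.5 and 37.1 CPM against 90.0 and 88.3 CPM (1.08, adjusted p = 0.00191). On the Sertoli scale they were at -0.05 and -0.26.

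Transcripts reported as NMD targets in mammalian cells were examined as a readout outside the machinery. Among the 14 tested, 5 rose (35.7%, against 29.2% of all genes) and 2 fell (14.3%, against 34.3%), 7 were not called, and the median was 0.57 on the log2 scale. On the Sertoli scale 1 was higher and 7 were lower. Of all 21822 genes tested, 309 were then higher and 14453 lower, with the median moved by -1.33. The counts on that scale are therefore not read as a trait of these transcripts. Several of the genes are also induced by cell stress. The largest rises were those of the stress transcription factor gene Atf3, at 0.449 and 0.957 CPM in wild type and 3.48 and 4.52 CPM in cKO (2.51, SE 0.409, adjusted p = 0.00255), and of Trib3, at 1.03 and 0.788 CPM against 1.64 and 2.38 CPM (1.14, adjusted p = 0.0281). Trib3 missed the cutoff when a wild-type replicate was dropped (adjusted p = 0.0539 for replicate 1 and 0.117 for replicate 2), when cKO replicate 2 was (0.147), with DESeq2 (adjusted p = 0.0548) and with a replicate block (adjusted p = 0.0568), and its value was -0.19 on the Sertoli scale. The falls were those of Tbl2, from 223.2 and 174.9 CPM to 62.7 and 63.6 CPM (-1.66, adjusted p = 3.67e-04), and of the stress gene Ddit3, from 39.1 and 36.2 CPM to 16.9 and 13.0 CPM (-1.33, adjusted p = 0.00133). Whether decay rates of these RNAs differ was not measured.

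**Figure D4:**
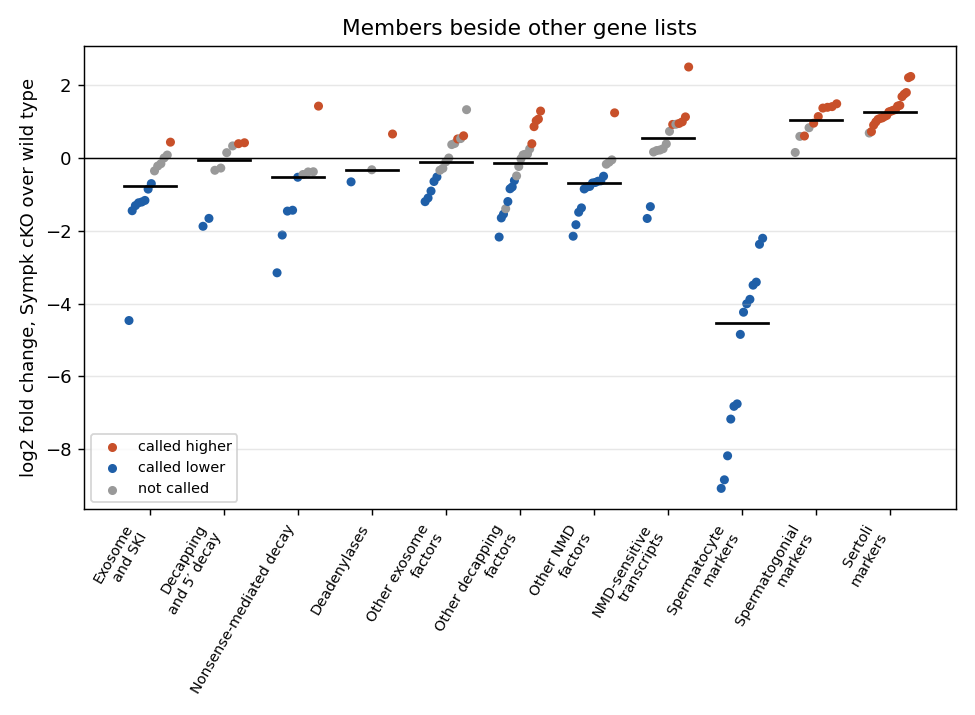
Log2 fold change of cKO over wild type for each gene of the 4 member groups, of the other genes of the same pathways, of NMD-sensitive transcripts and of spermatocyte, spermatogonial and Sertoli markers, coloured by the call, with a bar at each list's median. The member groups have medians from -0.77 to -0.06, between the spermatocyte markers at -4.54 and the Sertoli markers at 1.28.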

How the data were processed

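RNA-seq counts per gene were deposited by the authors as whole numbers with no normalization, beside FPKM values that the authors deposited for the same 4 libraries. Per the submitters' processing notes, HISAT2 and the GRCm38 build were used. For the counting, the program, strand setting and gene models were not given in the sources used here.

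Genes were filtered with filterByExpr and scaled with TMM, and cKO was tested against wild type with edgeR 4.0.16 (glmQLFTest, R 4.3.3) on the whole table, two-sided, with Benjamini-Hochberg adjustment over 21822 genes and a threshold of 0.05. Levels are CPM of the TMM-scaled library. Replicates differed beyond sampling noise (chi-square per gene 35.2 in wild type and 16.5 in cKO). In a simulated data set with 21178 genes tested, 100 genes were changed 2-fold and 100 genes 4-fold. Recovery was 46% at 2-fold and 98% at 4-fold. In the real data 63.4% of genes were called. The adjusted p depends on that share, so these recoveries do not carry over to the real comparison. Alternatives were DESeq2 1.42.0, limma-voom (limma 3.58.1), RLE factors, library totals, scaling to 20 Sertoli genes, other filters, a replicate block, and each library left out in turn. The lone library of a group was then assumed to vary like the others. A crossed block was chosen after seeing the data.

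Coordinates are those of the deposited table. Strand and exon overlap come from GENCODE M21 (GRCm38), where 32 of the 34 members have the same start and end. Promoters come from RefSeq (GRCm38.p6). The members and all gene lists were chosen with earlier results of these data known. Genes outside the members were named as Sympk and, per list, up to 2 called rises and 2 called falls of the largest size with a mean of at least 1 CPM.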

Additional observations from a re-analysis of the deposited data

How the results depend on the processing

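Leaving out each library in turn gave 13 to 17 members lower and 1 to 5 higher, with 7 to 8 lower and 0 higher in the exosome group, 0 to 3 higher in the decapping group, 4 to 7 lower in the NMD group, and 0 to 1 in each direction among the deadenylases. Exosc1 then ran from -0.52 to 0.15, Exosc4 from -0.06 to 0.23 and Exosc8 from -0.19 to 0.20. The library totals scale put Exosc1 at 0.06 and Dis3l2 at 0.01 and gave 4 higher decapping members, with the median of all genes moved by 0.22 and 7651 genes higher and 6423 lower. DESeq2 and RLE factors put Exosc8 at -0.03. With no filter on low counts 3 members were higher, 0 in the exosome group and 1 in the decapping group. A mean of at least 5 CPM left 4638 genes lower and 4594 higher over all tested, with 16 members lower and 5 higher.

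Scaling to the Sertoli list gave 309 genes higher and 14453 lower, and 33 members lower and 0 higher. By group it gave 14 lower exosome, 8 lower decapping, 8 lower NMD and 3 lower deadenylase members, with 0 higher in each. It reversed Exosc4 (-1.24), Exosc8 (-1.33), Ttc37 (-0.90), Dcp1a (-0.91), Dcp2 (-0.94), Xrn1 (-1.0), Xrn2 (-1.18), Parn (-0.67), Zcchc7 (-0.73), Papd7 (-0.81), Zfp36l1 (-0.26), Zfp36l2 (-0.05), Gspt2 (-0.09) and Trib3 (-0.19).

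A replicate block gave 16 members lower and 2 higher, with 0 higher in the exosome and decapping groups. The numbers are not known to pair the libraries: same-numbered libraries deviated with a correlation of -0.106 over genes. The crossed pairing, added after seeing the data, gave 16 lower and 5 higher. With 2 libraries per group, differences under 2-fold can be missed, and how often was not measured at the share of calls seen here.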

Other observations

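The wild-type libraries stood apart for several members, by 43.9% for Upf1, 42.6% for Upf3b and 37.8% for Smg1, against a median of 17.7% over the 34 members, and 14 members differed by over 20% between them.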
